A study of Homo sapiens with 12 samples.

Results

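The 41 human genes described here are taken as long noncoding RNAs (lncRNAs). They come by symbol from a table of 59577 genes: every row named SNHG plus a number, and 13 further named lncRNAs. They divide into 32 hosts of small nucleolar RNAs (28 SNHG genes with GAS5, ZFAS1, DANCR and EPB41L4A-AS1) and 9 others (MALAT1, NEAT1, NORAD, CYTOR, OIP5-AS1, TUG1, MIR22HG, PVT1 and MEG3). The gene annotation GENCODE 29 types SNHG32 as protein-coding, under the symbol C6orf48. The members were chosen by symbol alone, with no threshold on a measured value, but the set was put together with the differences between hyperoxia and normoxia already known, that of MALAT1 among them. Counts of members that differ are therefore a description and lend support to nothing.

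RNA was measured in H1299, an established cell line from a human non-small cell lung carcinoma, in 12 samples. The hyperoxia group (n = 6) spent 24 h in 60% oxygen, 5% CO2 and 35% nitrogen, and the normoxia group (n = 6) was kept in 21% oxygen, 5% CO2 and 74% nitrogen. All 12 samples come from this 1 line, and the labels do not say whether samples of a group were separate cultures, so the p-values speak only of sample-to-sample spread, and that spread could be technical. The deposited unit is TPM, a transcript abundance per length that is scaled to a common total in each sample.

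Sequencing depth cannot be read from TPM and is unknown here, and the number of samples sets the precision. Each sample listed 14275 to 14635 genes at 1 TPM or more, and mitochondrial RNA made up 6.92 to 7.57% of the TPM in hyperoxia and 7.22 to 8.19% in normoxia. The keratin KRT18 had 891 to 977 TPM in hyperoxia and 917 to 995 TPM in normoxia, while KRT19 stayed under 1 TPM. VIM, the intermediate filament of mesenchymal cells, averaged 3004 ± 242 TPM in hyperoxia and 3351 ± 189 TPM in normoxia, a log2 difference of -0.16 (limma Benjamini-Hochberg adjusted p = 0.051, and 0.00845 with median-of-ratios scaling). The authors' deposited table has VIM lower, with a log2 fold change of -0.18 and an adjusted p of 5.33e-05. The lung adenocarcinoma markers NKX2-1, NAPSA, SFTPB and SFTPC summed to 0.58 to 1.35 TPM in hyperoxia and 0.29 to 0.81 TPM in normoxia, with SFTPC listed at 0 throughout. The 9 markers of blood, endothelial, connective tissue and liver cells summed to 40.4 to 53.4 TPM in hyperoxia and 41.1 to 51.6 TPM in normoxia, nearly all of it CD68.

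Small nucleolar RNAs (snoRNAs) guide the chemical modification of ribosomal RNA, and in human cells most are cut out of the introns of host genes. The spliced host lncRNA that is left over is often short-lived, because many hosts are translated briefly and then removed by nonsense-mediated decay. MALAT1 and NEAT1 are different in kind: they are unspliced, abundant and nuclear, MALAT1 collecting in nuclear speckles and NEAT1 forming the scaffold of paraspeckles, the bodies that assemble on it in stressed cells.

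The members differed widely in level. Averaged over the 12 samples, 12 members exceeded 100 TPM, 20 lay between 10 and 100 TPM, 5 between 1 and 10 TPM and 4 under 1 TPM. The 5 most abundant, SNHG5, GAS5, SNHG29, SNHG6 and SNHG8, held 58.6% of the TPM of all members. These levels are uncertain, that of SNHG8 most plainly: its deposited length is 6165 bases, longer than the 1115 bases that the gene spans in GENCODE 29. The deposited length also exceeds the longest GENCODE 29 transcript for SNHG5 (5764 against 1032 bases), GAS5 (3145 against 1698) and SNHG29 (3310 against 1662). For SNHG6 both are 648 bases. The 4 members under 1 TPM were not tested. SNHG14 averaged 0.487 TPM in hyperoxia and 0.792 TPM in normoxia, and SNHG28 averaged 0.438 TPM in hyperoxia and 0.337 TPM in normoxia. The imprinted MEG3 reached 0.01 TPM at most, and SNHG18 was listed at 0 in every sample.

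Differences were tested two-sided with limma, on log2(TPM + 1), over the 14520 genes with a mean of at least 1 TPM, and p-values were adjusted over all of these by Benjamini-Hochberg. At an adjusted p under 0.05, 1698 genes (11.7%) were higher in hyperoxia and 818 (5.63%) lower, 17.3% in either direction. The split depended on scaling: with median-of-ratios factors it was 1279 higher and 1277 lower, and with quantile normalisation 1437 higher and 1208 lower. Of the 37 members tested, 4 rose (MALAT1, NORAD, CYTOR and SNHG16), 3 fell (SNHG32, SNHG5 and DANCR) and 30 did not pass. Among all 1502 genes tested that GENCODE 29 types as lncRNAs, which leaves out SNHG32, 3.4% rose and 3.46% fell. Those genes were not matched to the members in level, and log2 differences understate changes of low genes. In 18 of the 37 members the fitted difference was within 0.1 on the log2 scale, and the median over members was -0.06, against 0.03 over all genes tested. Bulk RNA cannot tell a change in the share of cells that hold a transcript from a change per cell.

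MALAT1 had the largest log2 difference of the members that passed the test. Its lowest, median and highest levels were 326, 337 and 378 TPM in hyperoxia, against 178, 194 and 214 TPM in normoxia. The groups did not overlap: every hyperoxia sample lay above every normoxia sample, a pattern seen upward in 6.2% and downward in 2.58% of all genes tested (8.78% in either direction). Among members it was seen upward in 3 (MALAT1, NORAD and SNHG16) and downward in 2 (SNHG32 and DANCR). The mean was 343 ± 18.4 TPM in hyperoxia and 196 ± 16.4 TPM in normoxia (SD, n = 6 each), a ratio of 1.75. The fitted log2 difference was 0.81 (SE 0.05), with a limma Benjamini-Hochberg adjusted p of 7.30e-07.

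NEAT1, the neighbouring gene, did not pass the test. In GENCODE 29 (GRCh38) MALAT1 lies at chr11:65497688-65506516 on the plus strand and starts 52148 bases after the end of NEAT1 at chr11:65422774-65445540 on the same strand. NEAT1 had 110, 116 and 144 TPM (lowest, median, highest) in hyperoxia, against 121, 146 and 199 TPM in normoxia. The groups overlapped, although 4 of the 6 hyperoxia samples were below the lowest normoxia sample. The log2 difference was -0.29 (SE 0.10), with a limma Benjamini-Hochberg adjusted p of 0.0767. Leaving out hyperoxia replicate 6 (NEAT1 adjusted p = 0.0462) or normoxia replicate 3 (0.0365), or scaling by median-of-ratios factors (0.0352), put it past the threshold in limma. The long and short isoforms of NEAT1 share 1 row, and the table divides by the 22743 bases of the long one. The long isoform is the one that builds paraspeckles, and the 2 cannot be separated in this value.

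The pair therefore stood in a different proportion in each group. Per sample, the ratio of MALAT1 to NEAT1 in TPM was 2.35 to 3.05 in hyperoxia and 1.07 to 1.53 in normoxia, with no overlap. MALAT1 amounted to 7.31 to 8.85% of the summed TPM of the snoRNA hosts in hyperoxia and 3.72 to 4.89% in normoxia. These ratios were formed after the levels were known and carry no test.

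MALAT1 and the long isoform of NEAT1 end without a usual poly(A) tail, while the short isoform of NEAT1 is polyadenylated. The ends of MALAT1 and of the long NEAT1 isoform are cut by RNase P upstream of a tRNA-like fold, and a genomically encoded A-rich tract folds back on U-rich stretches into a triple helix that guards the end. The 90 bases up to and including that tract are shown because they are the shared feature of the 2 RNAs, from GENCODE 29 transcripts on GRCh38, at chr11:65506027-65506116 for MALAT1 and chr11:65445451-65445540 for NEAT1, both on the plus strand. Capitals mark the A tract with the GCAAAA that closes it.
MALAT1: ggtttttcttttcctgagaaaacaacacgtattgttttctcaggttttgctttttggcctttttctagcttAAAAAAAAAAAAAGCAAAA
NEAT1: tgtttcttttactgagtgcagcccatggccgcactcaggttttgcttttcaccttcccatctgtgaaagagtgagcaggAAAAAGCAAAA
The tract of MALAT1 has 13 A before GCAAAA and that of NEAT1 has 5. In the annotated transcripts 353 bases follow the tract in MALAT1 and 0 in NEAT1. The sources name kits of different makers, and whether libraries began from poly(A) RNA or from RNA depleted of ribosomal RNA is not settled. The part of the library type in the level of this pair was not tested.

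A MALAT1 start region is shown because MALAT1 had the largest log2 difference of the members that passed the test. The sequence is RefSeq's (GRCh38.p14, chr11:65497488-65497715, plus strand), and capitals mark the 2 matches to TGACNNNGC, the core of the antioxidant response element, found on either strand.
MALAT1: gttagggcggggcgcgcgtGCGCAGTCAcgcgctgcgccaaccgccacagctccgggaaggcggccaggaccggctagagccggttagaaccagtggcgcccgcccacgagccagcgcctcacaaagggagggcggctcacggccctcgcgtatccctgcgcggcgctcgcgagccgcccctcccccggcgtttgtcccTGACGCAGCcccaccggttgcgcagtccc
The first match reads TGACTGCGC on the minus strand, and the second reads TGACGCAGC on the plus strand, beginning 231 and 51 bases before this RefSeq start. RefSeq also gives MALAT1 a window at chr11:65498795-65499094, which held no match. The window printed was picked for its matches. The motif occurs in 13.3% of all RefSeq windows of 300 bases, and 5 of the 35 member symbols with a window held it (MALAT1, NORAD, SNHG4, SNHG20 and SNHG27). A match of letters describes the window and does not show that a factor binds there.

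**Figure D1:**
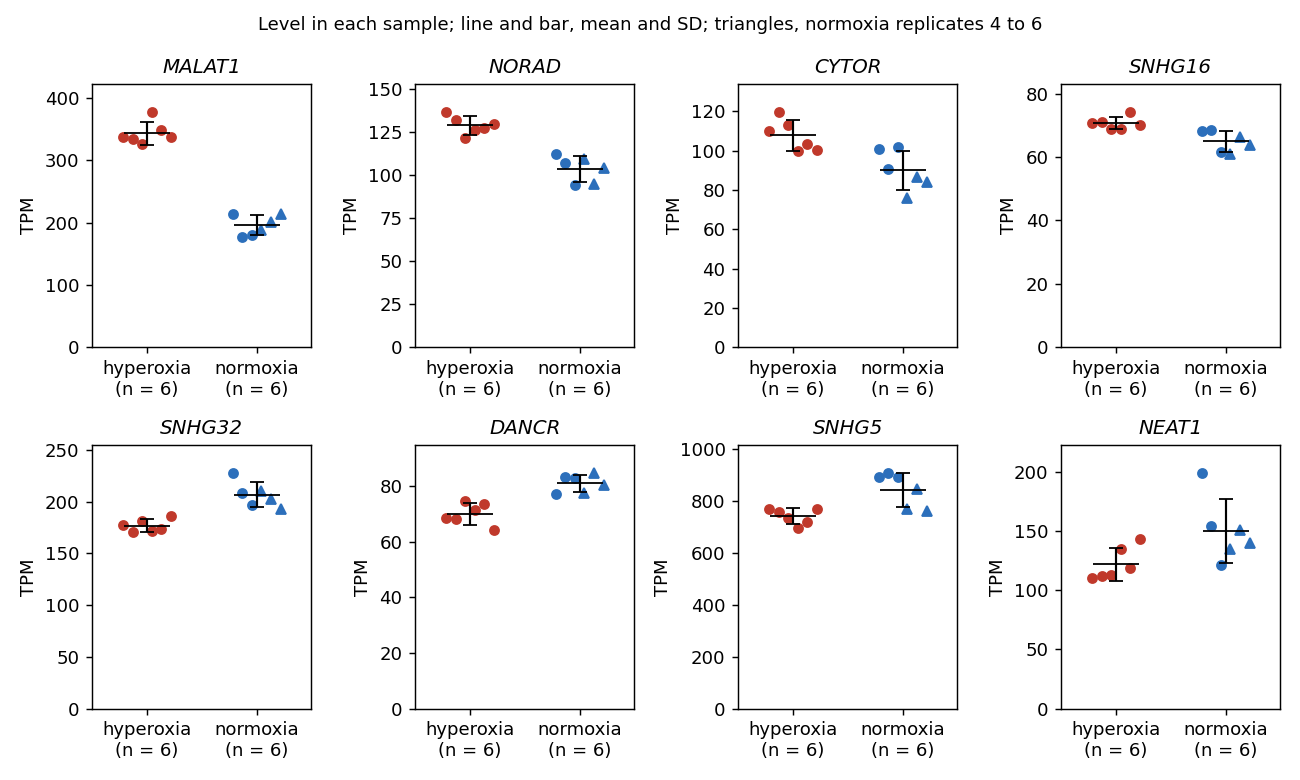
TPM of the 7 members that passed the test and of NEAT1 in each sample, hyperoxia left and normoxia right, on axes that start at 0; black lines and bars are the mean and SD of 6 samples, and triangles are normoxia replicates 4 to 6. MALAT1 separates widely (326 to 378 TPM in hyperoxia, 178 to 214 TPM in normoxia), while CYTOR, SNHG5 and NEAT1 overlap.

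The protein partners of the 2 nuclear bodies were followed as lists. Counts for these and the later lists are read beside the 11.7% of all genes tested that rose and the 5.63% that fell. Of 10 paraspeckle proteins, 1 rose, 1 fell and 8 did not pass, with a median log2 difference of 0.00. SFPQ, an RNA-binding protein essential for paraspeckles, averaged 237 ± 12.8 TPM in hyperoxia and 292 ± 20.3 TPM in normoxia, a log2 difference of -0.30 (limma Benjamini-Hochberg adjusted p = 0.0014). NUDT21, a subunit of the cleavage factor that sets the NEAT1 isoform choice, averaged 100.5 ± 5.36 TPM in hyperoxia and 83.4 ± 5.78 TPM in normoxia (log2 difference 0.27, limma adjusted p = 0.0030). In the authors' deposited table NUDT21 had a log2 fold change of 0.05 and an adjusted p of 0.442. NONO, the usual partner of SFPQ, had a log2 difference of 0.06 and an adjusted p of 0.194 in limma.

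Of 10 nuclear speckle proteins, 4 rose, 2 fell and 4 did not pass, and the median log2 difference was 0.13. SRSF1, a splicing factor whose speckle location depends on MALAT1, moved the other way from MALAT1. Its lowest, median and highest levels were 196, 200.4 and 216 TPM in hyperoxia, against 267, 274 and 286 TPM in normoxia, without overlap. The log2 difference of SRSF1 was -0.44 (SE 0.03). SRSF2 fell as well, at -0.15, whereas the splicing-associated proteins PNN (0.22), ACIN1 (0.23), RBM25 (0.13) and LUC7L3 (0.20) rose.

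NORAD is an abundant cytoplasmic lncRNA that holds Pumilio proteins and is needed for chromosome stability. It had 121, 129 and 137 TPM (lowest, median, highest) in hyperoxia, against 94.3, 106 and 112 TPM in normoxia. All hyperoxia samples were above all normoxia samples. The means were 129 ± 5.32 TPM in hyperoxia and 104 ± 7.52 TPM in normoxia, and the log2 difference was 0.31 (SE 0.05, limma Benjamini-Hochberg adjusted p = 0.000807). Of its protein partners, PUM2 (-0.08) did not pass in limma, nor did ELAVL1 (-0.05), the RNA stabiliser held by OIP5-AS1. The authors' deposited table has both lower, PUM2 at -0.15 (adjusted p = 1.47e-05) and ELAVL1 at -0.07 (adjusted p = 0.0474).

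The Pumilio motif TGTANATA sets NORAD apart from the other members. Its 5339-base transcript in GENCODE 29 held 15 matches on the sense strand, where the other 40 members had a median of 0 and at most 6 (NEAT1, over its far longer transcript). Among 1869 lncRNA genes with a longest transcript of 3000 to 8000 bases, 32.6% had a match. Counting NORAD itself, 3 had at least as many as NORAD. The stretch below, bases 1129 to 1258 of the transcript (GRCh38, chr20:36049703-36049832, minus strand), shows 2 of them in capitals.
NORAD: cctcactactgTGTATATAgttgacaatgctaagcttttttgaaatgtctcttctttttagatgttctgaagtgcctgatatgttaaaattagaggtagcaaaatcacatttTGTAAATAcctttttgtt
The matches are a property of the sequence and were not related to the level of NORAD.

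CYTOR, a cytoplasmic lncRNA often raised in tumours, passed the test with overlapping groups. It had 99.7, 107 and 120 TPM (lowest, median, highest) in hyperoxia, against 76.0, 88.6 and 102 TPM in normoxia. Of the 6 hyperoxia samples, 4 lay above the highest normoxia sample. The log2 difference was 0.26 (SE 0.07, limma Benjamini-Hochberg adjusted p = 0.0232), but without hyperoxia replicate 2 it was 0.23 with an adjusted p of 0.0524. With median-of-ratios scaling CYTOR was also at 0.23, with an adjusted p of 0.0721. Against normoxia replicates 1 to 3 alone it was 0.14 with an adjusted p of 0.228.

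The start region of CYTOR is shown because it held 2 copies of TGAGTCA, the site of AP-1 factors. The sequence is RefSeq's (GRCh38.p14, chr2:87455388-87455436, plus strand), with both copies in capitals, beginning 19 and 9 bases before the start.
CYTOR: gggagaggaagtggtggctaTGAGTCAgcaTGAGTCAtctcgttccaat
TGAGTCA or its reverse complement TGACTCA occurred in 4.95% of all windows, at least 2 copies occurred in 0.222%, and CYTOR was the 1 member symbol with any. CACGTG was also looked for, and was in 7.26% of all windows and in 5 member symbols. Here too a match of letters does not show that a factor binds, and no link to the level of CYTOR was tested.

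The remaining named lncRNAs did not pass. PVT1, the neighbour of MYC, averaged 25.3 ± 1.23 TPM in hyperoxia and 23.8 ± 1.91 TPM in normoxia, a log2 difference of 0.09. MYC itself, the proliferation factor, averaged 62.5 ± 18.5 TPM in hyperoxia and 152 ± 12.3 TPM in normoxia, a log2 difference of -1.31 (limma Benjamini-Hochberg adjusted p = 0.000173). The deposited numbers in the MYC row disagree with each other, so this value rests on the per-sample columns. PVT1 was thus 0.292 to 0.642 of MYC in hyperoxia and 0.134 to 0.188 in normoxia, in TPM per sample. TUG1 (-0.01), MIR22HG (0.06) and OIP5-AS1 (0.01) had log2 differences near 0. OIP5-AS1 was also variable, at 17.2 to 28.9 TPM in hyperoxia and 13.5 to 28.5 TPM in normoxia.

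**Figure D2:**
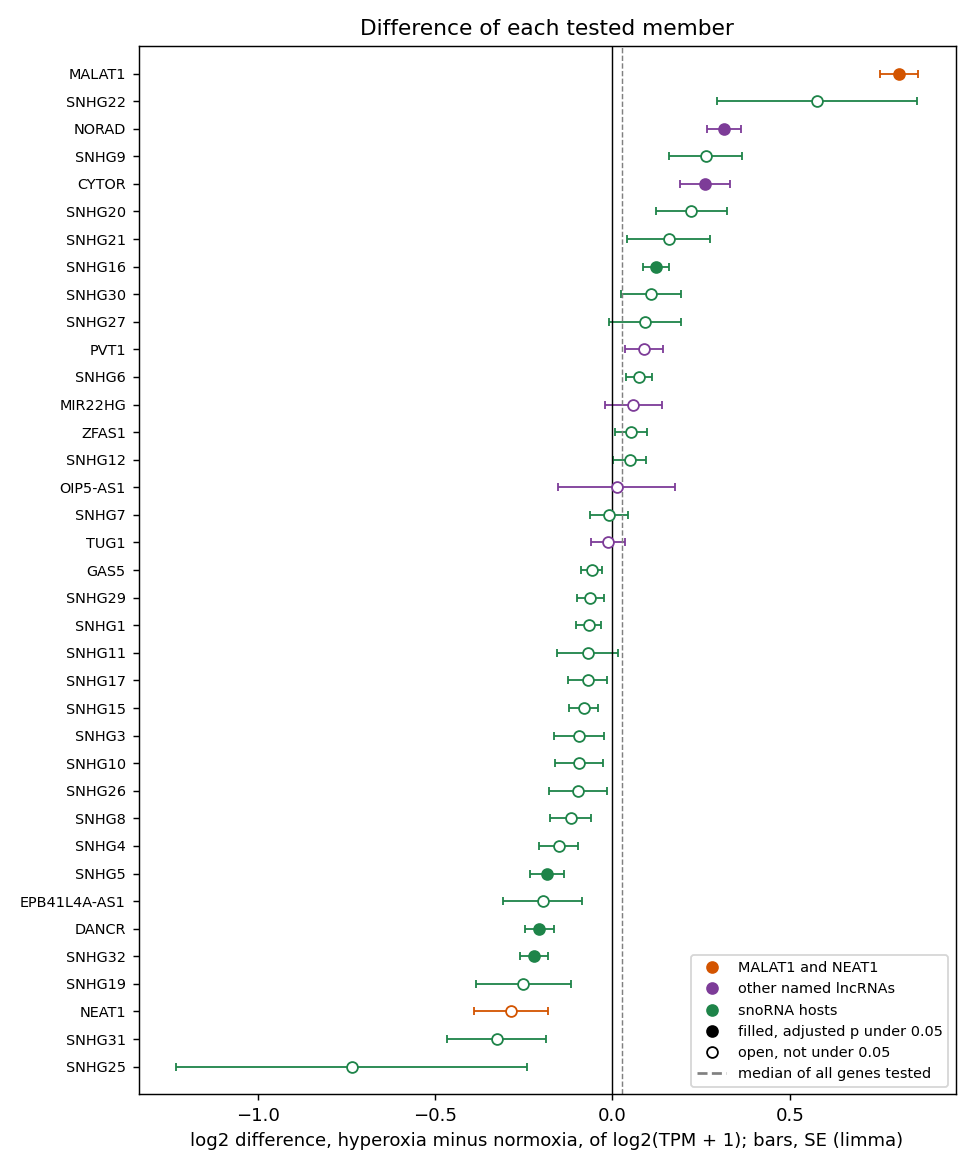
Log2 difference, hyperoxia minus normoxia, of each of the 37 tested members with its standard error (limma on log2(TPM + 1)), in order of size; filled points have an adjusted p under 0.05, colours separate MALAT1 and NEAT1, the other named lncRNAs and the snoRNA hosts, and the dashed line is the median of all genes tested. MALAT1 stands at 0.81, while 18 members lie within 0.1 of 0.

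Of the 29 snoRNA hosts tested, 1 rose, 3 fell and 25 did not pass, with a median log2 difference of -0.07. Over all genes tested, 11.7% rose and 5.63% fell, 17.3% in either direction, and the median was 0.03. The fitted value was below 0 in 19 hosts and above 0 in 10. The other 8 lncRNAs tested had 3 that rose, none that fell, and a median of 0.07. The summed TPM of the hosts was 4267 to 4455 in hyperoxia and 4386 to 4857 in normoxia.

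SNHG32, protein-coding by its GENCODE 29 type, fell furthest of the 3. Its lowest, median and highest levels were 171, 176 and 187 TPM in hyperoxia, against 193, 205 and 228 TPM in normoxia, and the groups did not overlap. The log2 difference was -0.22 (SE 0.04, limma Benjamini-Hochberg adjusted p = 0.0023). DANCR, a lncRNA that holds back differentiation, had 64.2, 70.0 and 74.6 TPM in hyperoxia, against 77.2, 81.5 and 84.6 TPM in normoxia. Again every hyperoxia sample was below every normoxia sample, with a log2 difference of -0.21 (SE 0.04, limma adjusted p = 0.0044).

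SNHG5, the most abundant member together with GAS5, had 694, 746 and 769 TPM in hyperoxia, against 758, 867 and 905 TPM in normoxia. The groups overlapped, and 4 hyperoxia samples lay below the lowest normoxia sample. The log2 difference was -0.18 (SE 0.05, limma Benjamini-Hochberg adjusted p = 0.0195). Against normoxia replicates 4 to 6 alone it was -0.09, with an adjusted p of 0.239.

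SNHG16 was the 1 host that rose. It had 68.9, 70.4 and 74.2 TPM in hyperoxia, against 61.0, 65.0 and 68.4 TPM in normoxia. The groups did not overlap, but the gap between them was under 1 TPM. The log2 difference was 0.12 (SE 0.04, limma Benjamini-Hochberg adjusted p = 0.0374). It passed in 10 of 22 alternatives. Leaving out hyperoxia replicate 1, 2, 5 or 6 gave SNHG16 adjusted p-values of 0.0606, 0.0661, 0.0802 and 0.0537. Leaving out normoxia replicate 3, 4 or 6 gave 0.0623, 0.0689 and 0.0673.

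GAS5, which responds to growth arrest and can hold the glucocorticoid receptor, was among the steadiest members. It had 720, 751 and 757 TPM in hyperoxia, against 746, 762 and 834 TPM in normoxia, a log2 difference of -0.06 that did not pass. Its coefficient of variation over the hyperoxia samples was 2.13%, the lowest of the tested members, whose median was 6.46% in hyperoxia and 8.04% in normoxia. SNHG29 (-0.06), SNHG6 (0.07), ZFAS1 (0.05) and SNHG1 (-0.07) also had log2 differences within 0.1. Further from 0 on the positive side, without passing, were SNHG22 (0.58), SNHG9 (0.26), SNHG20 (0.22), SNHG21 (0.16) and SNHG30 (0.11). On the negative side these were SNHG31 (-0.33), SNHG19 (-0.25), EPB41L4A-AS1 (-0.20), SNHG4 (-0.15) and SNHG8 (-0.12). The low member SNHG22 had 1.06 to 4.45 TPM in hyperoxia and 0.54 to 2.44 TPM in normoxia. SNHG31 had 0.62 to 1.62 TPM in hyperoxia and 1.13 to 2.06 TPM in normoxia. SNHG25, a short host whose fitted value of -0.74 was the lowest of all, rested on 1 sample: normoxia replicate 3 had 184 TPM, the other normoxia samples had at most 21.8 TPM, and hyperoxia had 12.2 to 20.4 TPM. Without that sample SNHG25 was at -0.18.

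Several members overlap other genes, so OIP5-AS1, EPB41L4A-AS1, ZFAS1 and SNHG3 may carry reads of the gene they overlap. Whether reads were counted by strand is not stated. Of the neighbours of members, RCC1 beside SNHG3 (-0.04), OIP5 (-0.07) and ZNFX1 beside ZFAS1 (0.12) did not pass. SLC3A2, the amino acid transporter chain next to SNHG1, averaged 199 ± 8.62 TPM in hyperoxia and 280 ± 34.1 TPM in normoxia (log2 difference -0.49, limma Benjamini-Hochberg adjusted p = 0.000455). SNHG1 was 0.884 to 1.02 of SLC3A2 in hyperoxia and 0.565 to 0.849 in normoxia, in TPM per sample. Of 14 neighbours tested, SLC3A2 and MYC fell and none rose.

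Many snoRNA hosts are known to start with a C followed by a run of pyrimidines (C or T), the 5′ terminal oligopyrimidine start that they share with ribosomal protein genes. Of 25 tested hosts with a RefSeq window, 6 (24%) started with C and at least 4 more pyrimidines, against 4.07% of all windows. The 40 bases around each start are shown, with the 15 bases before it in lower case and the pyrimidine run from the start in capitals. The build is GRCh38.p14, and the places are chr1:28581849-28581888 (minus strand) for SNHG12, chr5:139274086-139274125 (plus) for SNHG4, chr6:31834901-31834940 (plus) for SNHG32, chr6:85678709-85678748 (minus) for SNHG5, chr16:2155334-2155373 (minus) for SNHG19 and chr20:49278627-49278666 (plus) for ZFAS1.
SNHG12: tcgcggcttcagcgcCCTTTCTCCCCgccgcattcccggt
SNHG4: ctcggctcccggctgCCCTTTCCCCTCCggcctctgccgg
SNHG32: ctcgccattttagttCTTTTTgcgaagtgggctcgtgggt
SNHG5: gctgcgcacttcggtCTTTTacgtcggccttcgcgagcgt
SNHG19: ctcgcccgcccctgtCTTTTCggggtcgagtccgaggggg
ZFAS1: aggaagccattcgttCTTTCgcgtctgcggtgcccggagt
Their log2 differences ran between -0.25 (SNHG19) and 0.05 (ZFAS1), with a median of -0.17. The 19 hosts without the run at the RefSeq start had a median of -0.07. Other starts of these hosts were not searched. For GAS5 the GENCODE 29 start, at chr1:173868882 on the minus strand, lies outside the RefSeq window at chr1:173868996-173869295. SNHG7 and SNHG26, with runs of 4, and SNHG1, with a run of 3, fell short of the cutoff. SNHG32 and SNHG5 are 2 of the 3 hosts that fell, and DANCR, the other, has no such start in its window. The split was made with the values known and was not tested.

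Normoxia replicates 1 to 3 and replicates 4 to 6 were also looked at as separate sets, which the labels do not name. Normoxia replicates 1 to 3 had a summed host TPM of 4736 to 4857, above the 4386 to 4478 of replicates 4 to 6, and the hyperoxia samples had 4267 to 4455. In 7 members replicates 1 to 3 were all above replicates 4 to 6, and in 2 all below, where 4.08% of all genes tested were above in this way and 6.33% below. Shares over all genes of about that size arise for any arbitrary split of 6 samples into 3 and 3, so they show no grouping. Against either set alone, with 6 hyperoxia and 3 normoxia samples, MALAT1 (0.85 against replicates 1 to 3, 0.77 against 4 to 6), NORAD (0.30 and 0.33), SNHG32 (-0.25 and -0.19) and DANCR (-0.21 and -0.20) kept limma adjusted p-values of at most 0.0413. SNHG8 was at -0.23 against replicates 1 to 3 (adjusted p = 0.0228) and at -0.00 against replicates 4 to 6. SNHG19 was at -0.47 against replicates 1 to 3 (adjusted p = 0.0329) and at -0.03 against replicates 4 to 6. Both comparisons share the hyperoxia samples, and the labels give no batch, so what the sets stand for cannot be told.

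**Figure D3:**
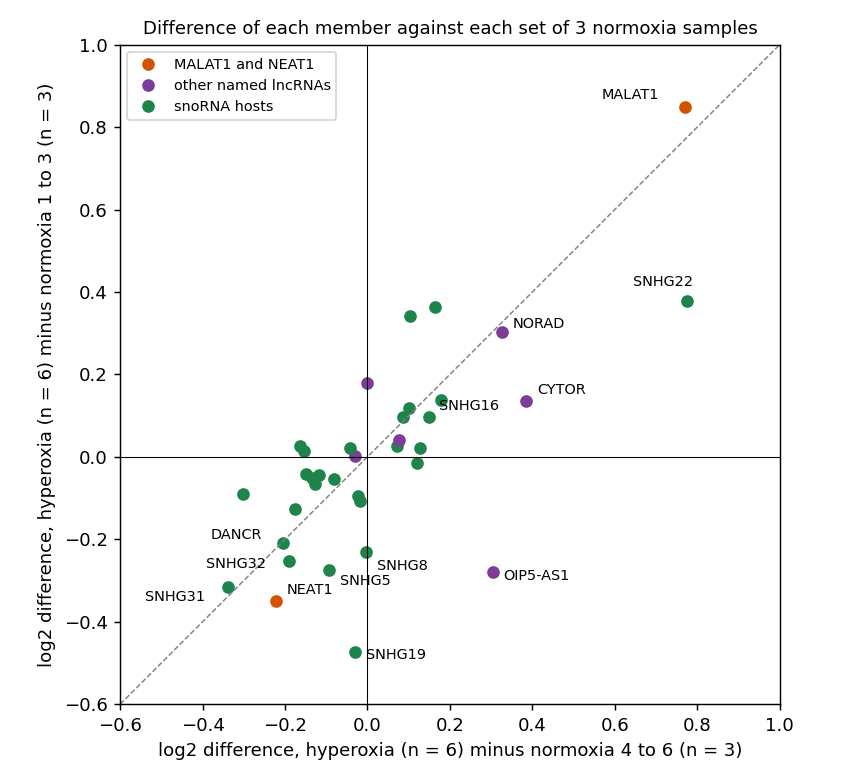
Log2 difference of each tested member against normoxia replicates 4 to 6 (horizontal axis) and against normoxia replicates 1 to 3 (vertical axis), hyperoxia n = 6 and normoxia n = 3 in each; the dashed line marks equal values, and SNHG25 (-0.36 and -1.11) lies outside the axes. MALAT1 and NORAD are near the line, while SNHG5, SNHG8, SNHG19 and OIP5-AS1 are lower against replicates 1 to 3.

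The small RNAs themselves could not be followed. In the GENCODE 29 copy used here 30 of the 32 hosts enclose a gene of a snoRNA or a small Cajal body RNA on their strand, all but GAS5 and SNHG27, and 0 of the 9 other lncRNAs do. GAS5 is a well-known host, and SNORD79 was placed with it on the list of small RNAs followed here. Of 50 small RNAs on that list, 35 were in the table, 24 of these were listed at 0 in all 12 samples, and 11 could be tested. None of the 11 passed in limma, and 1 had an unadjusted p under 0.05. This was SNORA24, inside SNHG8, listed at 0 in every hyperoxia sample and at 0 to 25.8 TPM in normoxia (limma Benjamini-Hochberg adjusted p = 0.0972). SNORA73B, inside SNHG3, was the one seen in most samples, at 0 to 28.3 TPM in hyperoxia and 5.6 to 62.0 TPM in normoxia, so hosts and their products could not be compared. Of 12 abundant structural RNAs in the table, 9 were tested and 1 passed, the spliceosomal RNU5A-1, at 2.68 to 5.21 TPM in hyperoxia and 1.65 to 210 TPM in normoxia. Its limma log2 difference was -2.90, and without normoxia replicates 4 to 6 it was -1.92 with an adjusted p of 0.167. The authors' deposited table has the opposite sign for RNU5A-1, a log2 fold change of 1.49, so no direction is taken for it.

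The proteins that build snoRNA particles were followed as a list. Of 16 tested, 5 rose (DKC1, NHP2, NUFIP1, ZNHIT3 and ZNHIT6), 1 fell (RUVBL1) and 10 did not pass, with a median log2 difference of 0.11. Over all genes tested, 11.7% rose and 5.63% fell. ZNHIT6, an assembly factor for box C/D particles, averaged 20.7 ± 1.33 TPM in hyperoxia and 16.2 ± 0.459 TPM in normoxia (log2 difference 0.34, limma Benjamini-Hochberg adjusted p = 0.000407). DKC1, the pseudouridine synthase of box H/ACA particles, averaged 176 ± 9.51 TPM in hyperoxia and 153 ± 3.31 TPM in normoxia (log2 difference 0.20, limma adjusted p = 0.0024). FBL, the methyltransferase of box C/D particles, was at 0.02 and did not pass.

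Of 11 factors of nonsense-mediated decay, 2 rose in limma (SMG5 and SMG8), none fell and 9 did not pass. The helicase UPF1 (0.05) was among those 9. The authors' deposited table has SMG6 (-0.29, adjusted p = 1.34e-05) and NBAS (-0.18, adjusted p = 0.000954) lower. It also has SMG5 (0.17), SMG8 (0.26) and SMG9 (0.12) higher at an adjusted p under 0.05. In limma SMG6 (-0.12) and NBAS (-0.19) did not pass. SMG5 (0.24 in limma) helps to bring phosphorylated UPF1 to decay enzymes, and SMG8 (0.27 in limma) holds back the kinase that phosphorylates it. Without normoxia replicates 1 to 3 the limma Benjamini-Hochberg adjusted p of SMG8 was 0.0528. Of 22 protein-coding snoRNA hosts, 2 rose (EIF4A2 at 0.16 and NCL at 0.25), 2 fell (RACK1 at -0.11 and RPL3 at -0.25) and 18 did not pass, with a median of -0.03. For both lists the shares over all genes tested were 11.7% higher and 5.63% lower. RPL3, a ribosomal protein, averaged 2092 ± 102 TPM in hyperoxia and 2486 ± 47.5 TPM in normoxia.

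**Figure D4:**
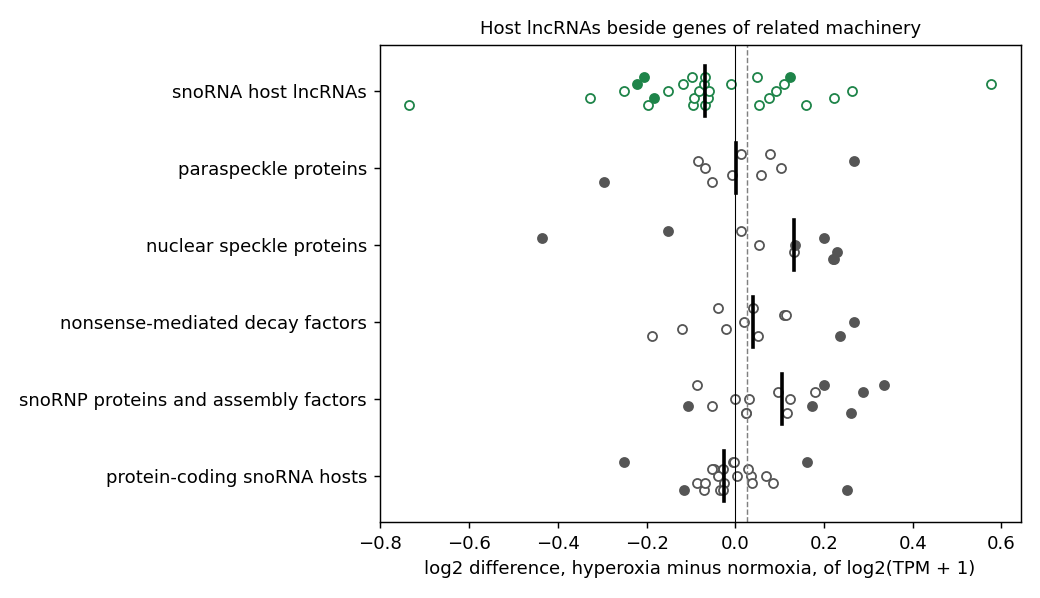
Log2 difference, hyperoxia minus normoxia, of each tested snoRNA host lncRNA (top row) and of each gene of 5 related lists; filled points have an adjusted p under 0.05, thick bars are medians, and the dashed line is the median of all genes tested. The host lncRNAs have a median of -0.07, and the snoRNP proteins one of 0.11.

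The authors' deposited table gives its own log2 fold changes and adjusted p-values. By the authors' deposited table, MALAT1 (0.72) and NORAD (0.30) are the 2 members that are higher at an adjusted p under 0.05. By the authors' deposited table, the 8 members that are lower are SNHG32 (-0.26), SNHG5 (-0.19), DANCR (-0.18), SNHG4 (-0.20), SNHG8 (-0.18), SNHG29 (-0.11), EPB41L4A-AS1 (-0.29) and SNHG14 (-0.66). Of these, 5 also passed the limma test above, and CYTOR (0.13 in the authors' deposited table) and SNHG16 (0.10) did not pass in theirs.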

How the data were processed

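The authors' deposited table holds TPM per sample, per the file headers, although its name gives another unit. Beside these stand the authors' deposited group means, their fold change (a ratio and its log2) and the raw and adjusted p-value of each gene. HTSeq 0.9.1 (counting) and edgeR 3.16.5 (normalisation) are named per the submitters' processing notes. For aligner, annotation and TPM formula: not given in the sources used here. Those notes list the mouse build mm9, although the identifiers are human Ensembl ones, so coordinates come from GENCODE 29 and RefSeq. The library kit differs between the protocol and the design text.

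Groups came from the treatment labels. limma 3.58.1 (R 4.3.3; lmFit, eBayes with trend) was fitted to log2(TPM + 1) of all 12 samples for the 14520 genes with a mean of at least 1 TPM, with Benjamini-Hochberg adjustment and a threshold of 0.05. Log2 differences understate changes of low genes. 75 rows have deposited numbers that disagree by over 0.001, none of them a member. The limma step was tested on simulated data. Alternatives were other pseudocounts, filters, scalings and variance models, the table without those 75 rows, a replicate block, and left-out samples.

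The members and lists were chosen with earlier results of these data known. All 41 members are accounted for. From each list up to 3 genes with the smallest p are named, with SFPQ, NONO, UPF1, SLC3A2, MYC, FBL and DKC1; other list genes were named after their values were seen. A few genes are not reported here.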

Additional observations from a re-analysis of the deposited data

Results flagged for a closer look

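Of 136 groups of 6 samples examined, 6 held a sample set apart from the others by more than Dixon's 95% critical value, and chance gives about 1 in 20. Among members, all were in normoxia. SNHG25 had 183.69 TPM in normoxia replicate 3, with the next highest sample at 21.8 TPM. SNHG3 had 97.16 TPM in normoxia replicate 6, with the next at 78.5 TPM. SNHG10 had 24.74 TPM in normoxia replicate 4, with the next at 21.6 TPM. SNHG26 was low in normoxia replicate 2, at 6.77 TPM, with the next at 7.85 TPM. Outside the members, KRT8 was low at 550.82 TPM in normoxia replicate 3 and RNU5A-1 had 209.84 TPM in normoxia replicate 5. What sets these samples apart was not tested.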

How the results depend on the processing

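Over 22 alternatives, MALAT1, NORAD, SNHG32 and DANCR passed the limma test in all. No called member changed sign, 8 members that were not called changed sign in some alternative, 6 were called only under an alternative and 24 in no setting. SNHG16 did not pass in 12 alternatives, and CYTOR did not pass in 4. SNHG5 did not pass in 2. Members called higher numbered 4 in the reported fit, and 2 with no filter on low values, with median-of-ratios scaling and without normoxia replicates 4 to 6. Members called lower numbered 3, and 5 with median-of-ratios scaling, with quantile normalisation and without normoxia replicates 4 to 6. Genes called lower numbered 818, and 1277 with median-of-ratios scaling. Without normoxia replicates 4 to 6, 1000 genes were higher and 375 lower, and without replicates 1 to 3, a choice made after seeing the data, 788 were higher and 443 lower; both fits have 3 fewer samples. With each sample left out in turn, members called higher ranged from 2 (without hyperoxia replicate 2) to 4, and members called lower ranged from 3 to 4. The causes were not tested.

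The replicate numbers did not pair the samples: deviations of same-numbered samples correlated at -0.12 to 0.02, and the own number was the best match in 1 of 6. With a replicate block, 1656 genes were higher and 889 lower, and members stayed at 4 and 3. The unknown depth limits what can be said of members under 1 TPM and of the small RNAs.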
